A study of Mus musculus with 54 samples.

Results

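The 10 genes *Inpp5d*, *Ptpn6*, *Ubash3a*, *Ubash3b*, *Cbl*, *Cblb*, *Csk*, *Map4k1*, *Dok1*, and *Dok2* encode intracellular proteins that restrain signaling from the T cell receptor (TCR), and their RNA was followed in mouse naive CD4+ T cells before and after stimulation. They were chosen by name for this role and are 10 of the 55385 genes in the deposited count tables. All of them were counted in every library, with at least 441 reads of each, and entered every test. The cells came from C57BL/6 mice of 8 to 10 weeks and were left unstimulated (0 h) or cultured for 4 h or 20 h with plate-bound anti-CD3 at 3 µg/ml and soluble anti-CD28 at 1 µg/ml. In the CD5/CD6 experiment (36 libraries), naive CD4+ T cells of WT, Cd5-/-, Cd6-/-, and Cd5-/-Cd6-/- mice were enriched with magnetic beads from pooled lymph nodes and spleens. The Cd5-/- line was backcrossed to C57BL/6, the Cd6-/- line carries a small deletion that takes the start codon, and a deletion from *Cd5* into *Cd6* on chromosome 19 made the Cd5-/-Cd6-/- line. In the LAT experiment (18 libraries), both kinds of cells came from mice that carry the *Lat* fl-dtr alleles and maT-Cre. Flow cytometry parted the cells that show the human diphtheria toxin receptor (hDTR+, here WT) from those that do not (hDTR-, here Lat-/-). The mice thus had the same transgenes, while WT and Lat-/- cells differ in hDTR as well as in LAT. The promoter that drives maT-Cre is not given in the sources used here. Each group had 3 libraries. The 4 h and 20 h times have no unstimulated group, so the effects of stimulation and of time in culture cannot be told apart.

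TCR engagement sets off tyrosine phosphorylation by the kinases LCK and ZAP70, and the adaptor LAT, once phosphorylated, gathers the proteins that carry the signal on to calcium and RAS. The proteins studied here act against these steps. CSK phosphorylates the inhibitory tyrosine of LCK. The tyrosine phosphatase SHP1 (*Ptpn6*) and the lipid phosphatase SHIP1 (*Inpp5d*) remove phosphates from signaling proteins and from the lipid product of PI3K. The ubiquitin ligases CBL and CBLB mark receptors and kinases for turnover, and STS-2 (*Ubash3a*) and STS-1 (*Ubash3b*) bind them, with STS-1 also acting as a phosphatase on ZAP70. The kinase HPK1 (*Map4k1*) phosphorylates the adaptor SLP-76 and limits its signaling, while DOK1 and DOK2 are adaptors that recruit the inhibitors RASGAP and SHIP1. CD5 and CD6 are transmembrane receptors of T cells whose phosphorylated tails bind several of these proteins. The comparisons asked how the RNA of the inhibitors moved with stimulation and how it depended on CD5, CD6, and LAT.

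On GRCm38, *Inpp5d* lies on chromosome 1 from 87620312 to 87720507, *Ptpn6* on chromosome 6 from 124720707 to 124738714, *Dok1* on chromosome 6 from 83030934 to 83033471, *Map4k1* on chromosome 7 from 28982050 to 29003279, *Dok2* on chromosome 14 from 70766036 to 70778495, *Cblb* on chromosome 16 from 52031225 to 52208048, and *Ubash3a* on chromosome 17 from 31207873 to 31246892. The other 3 genes share chromosome 9, with *Ubash3b* from 41011098 to 41161697, *Cbl* from 44142976 to 44234049, and *Csk* from 57626646 to 57653631, all on the minus strand. All are protein coding, and none lies on chromosome 19, which holds *Cd5* and *Cd6*. *Ptpn6* shares 195 exon bases with *Gm20531*, an antisense gene, and because the use of strand in the counting is not given, its counts could include reads of that gene. RefSeq promoter windows of GRCm38.p6 were at hand for 8 of the 10 genes, *Dok1* and *Dok2* being without entry. The 250 bases before both starts of *Ubash3b* that have such a window are shown, since its RNA had the highest fold change of the 10 after stimulation. They lie within the gene as counted but outside its exons, and are written 5′ to 3′ on the gene's strand, with the letters GGAAA or, on the other strand, TTTCC, in capitals. GGAAA is the core that NFAT factors bind, a match being no proof of a site.
Ubash3b, chr9:41158063-41158312, minus strand: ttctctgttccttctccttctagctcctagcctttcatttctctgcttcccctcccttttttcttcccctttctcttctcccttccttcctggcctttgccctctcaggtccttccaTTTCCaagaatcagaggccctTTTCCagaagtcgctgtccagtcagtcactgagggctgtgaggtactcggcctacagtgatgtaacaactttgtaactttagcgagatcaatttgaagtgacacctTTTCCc
Ubash3b, chr9:41079507-41079756, minus strand: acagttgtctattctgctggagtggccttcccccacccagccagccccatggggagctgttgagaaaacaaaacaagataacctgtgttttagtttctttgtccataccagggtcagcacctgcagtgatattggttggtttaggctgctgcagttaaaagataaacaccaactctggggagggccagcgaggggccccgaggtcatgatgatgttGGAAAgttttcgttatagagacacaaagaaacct
The first window holds 3 matches and the second 1. The window of *Cbl* and 1 of 2 windows of *Csk* also hold 3, and the other windows of the 8 genes hold 0 to 2. Of all 32851 windows of this length, 55.6% hold at least 1 match on either strand and 6.39% hold at least 3. The letters TGANTCA (N for any base), which AP-1 factors bind, were found on neither strand in any window of the 8 genes and are present in 6.75% of all windows.

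Library totals ran from 20554354 to 45222554 counts (median 31680304) in the CD5/CD6 experiment and from 17784644 to 28501095 (median 23430703) in the LAT experiment. The targeted genes were checked first. In the LAT experiment, *Lat* was at 5.69 to 19.1 CPM (counts scaled to the library total) in Lat-/- cells and at 92.2 to 351 in WT cells, which is below the 459 to 1345 CPM of WT cells in the CD5/CD6 experiment. In Cd5-/-Cd6-/- cells, *Cd5* and *Cd6* were each under 1 CPM. Of the 0 h libraries, library 2 labelled Cd5-/- had 719 CPM of *Cd5* and 329 of *Cd6*, and library 2 labelled Cd6-/- had 172 CPM of *Cd5* and 1203 of *Cd6*, which goes against both labels. The other 0 h libraries labelled Cd6-/- had 724 and 719 CPM of *Cd5* and 349 and 251 of *Cd6*. Those labelled Cd5-/- had 129 and 105 CPM of *Cd5* and 1298 and 1084 of *Cd6*. Each library 2 was thus nearer to the libraries of the other label, and whether they were exchanged was not tested. The labels were kept, and results that rest on these libraries were also computed without them. The other 8 libraries labelled Cd5-/- had 11.4 to 150.3 CPM of *Cd5* and the other 8 labelled Cd6-/- had 230.1 to 349 CPM of *Cd6*, beside 602 to 1684 and 599.7 to 1131 in WT cells. All 7 T cell markers (such as Cd3e, Trac, and Cd4) had more than 200 CPM in every library. Marker RNA of B, myeloid, and red blood cells was high in the enriched libraries only early. The summed level of 6 B cell markers in the CD5/CD6 experiment ran from 62.7 to 559 CPM at 0 h and from 1.16 to 4.51 at 20 h. That of 8 myeloid markers ran from 57.8 to 478 and from 1.84 to 4.13, and that of 2 hemoglobin genes reached 3607 at 0 h. For other cells the fall was smaller. The summed level of 3 NK cell markers ran from 24.0 to 99.6 CPM at 0 h and from 13.0 to 48.2 at 20 h. That of 2 CD8 T cell markers ran from 29.9 to 85.1 and from 15.9 to 30.8. In the sorted cells of the LAT experiment, no library exceeded 4.90 CPM for the B cell, 9.59 for the myeloid, and 2.24 for the hemoglobin genes, and Pax5 and Ms4a1 were each at 0 in 16 of 18 libraries. The study calls the samples of a condition independent, but the labels do not say whether they came from separate mice, so p-values measure the spread between libraries, which may be technical. In bulk RNA, fewer cells of a type and less RNA per cell cannot be told apart.

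Levels were compared between genes per kilobase of exon (RPKM, from CPM and the merged exon length). In unstimulated WT cells from the CD5/CD6 experiment, *Csk* was highest at 159 ± 18.3 RPKM (SD, n = 3), followed by *Ptpn6* at 98.5 ± 15.3, and the ranges of these 2 genes lay apart from each other and from the rest. *Map4k1* (42.1 ± 4.20) and *Dok2* (37.0 ± 2.15) overlapped, as did *Cbl* (27.7 ± 5.36) and *Inpp5d* (23.5 ± 3.37). *Cblb* stood at 18.3 ± 1.17 RPKM, above *Ubash3a* (13.3 ± 1.11) and *Dok1* (13.3 ± 1.71), which overlapped, and *Ubash3b* was lowest at 6.97 ± 0.916.

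At 4 h, *Ubash3b* had moved from the last to the third place, with 106 ± 17.7 RPKM, and its range overlapped that of *Ptpn6* (119 ± 16.3), which in turn overlapped that of *Csk* (125 ± 9.74). *Cblb* followed at 76.6 ± 7.82, and *Ubash3a* was now last at 5.90 ± 0.894. By 20 h, *Csk* (146 ± 8.44), *Ptpn6* (116 ± 6.72), and *Map4k1* (76.4 ± 2.07) led without overlap. The other 7 genes lay between 11.4 ± 4.89 (*Cbl*) and 20.2 ± 2.73 RPKM (*Dok2*), each overlapping its neighbor in the order. In the LAT experiment, the first 4 places of the WT cells were the same at each time, and *Ubash3b* was last at 0 h (6.06 ± 1.49 RPKM), in place 3 at 4 h (94.3 ± 14.7), and in place 9 at 20 h (12.5 ± 0.721).

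**Figure D1:**
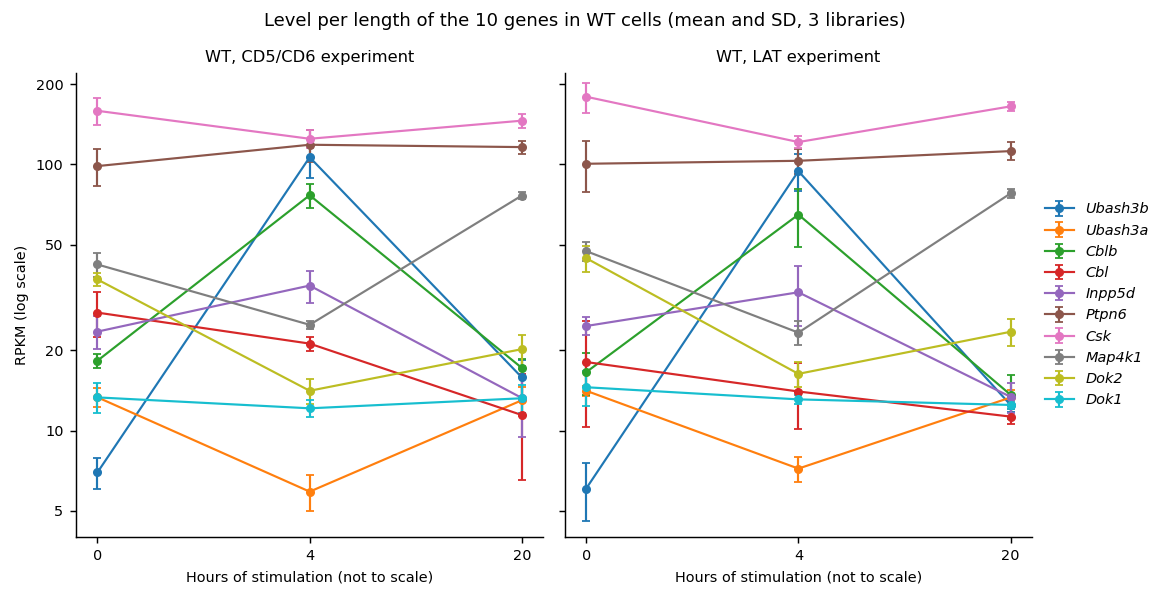
Level per length (RPKM, log scale) of the 10 genes in WT cells of both experiments against hours of stimulation (spacing not to scale), points being the mean and bars the SD of 3 libraries. *Ubash3b* rises from the lowest level at 0 h into the range of *Ptpn6* at 4 h, *Ubash3a* is lowest at 4 h, and *Csk*, *Ptpn6*, and *Map4k1* lead at 20 h.

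With stimulation, the inhibitors moved in opposite directions, and most moves had turned or faded by 20 h. Genes were called at an adjusted p under 0.05 (the quasi-likelihood test of edgeR, with p-values adjusted by Benjamini and Hochberg's method over all genes with at least 1 read). In WT cells from the CD5/CD6 experiment at 4 h, *Ubash3b*, *Cblb*, and *Inpp5d* rose, 3 of 10 beside 13.3% of the 32290 genes tested, and *Dok2*, *Ubash3a*, and *Map4k1* fell, 3 of 10 beside 15.2%. At 20 h, *Ubash3b* and *Map4k1* were higher than at 0 h (2 of 10 beside 16.9%), and *Cbl*, *Dok2*, and *Inpp5d* were lower (3 of 10 beside 21.1%). From 4 h to 20 h, *Map4k1*, *Ubash3a*, and *Dok2* rose (3 of 10 beside 13.8%) and *Ubash3b*, *Cblb*, *Inpp5d*, and *Cbl* fell (4 of 10 beside 16.7%). Such changes were common among expressed genes. Of the 16143 genes that edgeR's expression filter kept, 59.0% were called in either direction at 4 h and 74.2% at 20 h, beside 7 and 5 of the 10 genes in the filtered table. Their median log2 fold change was -0.24 at 4 h and -0.064 at 20 h, beside -0.13 and -0.16 for the filtered genes and 0 for all genes tested.

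In the sorted WT cells of the LAT experiment at 4 h, *Ubash3b*, *Cblb*, and *Inpp5d* rose (3 of 10 beside 14.2% of 27780 genes) and *Dok2*, *Map4k1*, *Ubash3a*, *Csk*, and *Cbl* fell (5 of 10 beside 14.8%), *Csk* and *Cbl* in addition to those of the CD5/CD6 experiment. At 20 h against 0 h, 2 rose beside 16.5% and 3 fell beside 18.2%, the same genes as in the CD5/CD6 experiment. From 4 h to 20 h, *Map4k1*, *Ubash3a*, *Dok2*, and *Csk* rose (4 of 10 beside 13.4%) and *Ubash3b*, *Cblb*, and *Inpp5d* fell (3 of 10 beside 16.1%), so that here *Csk* was called in addition and *Cbl* was not. In the filtered table of 13928 genes, 58.6% were called at 4 h and 67.9% at 20 h, and 7 and 5 of the 10. Both experiments were fitted separately, and their difference was not tested.

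**Figure D2:**
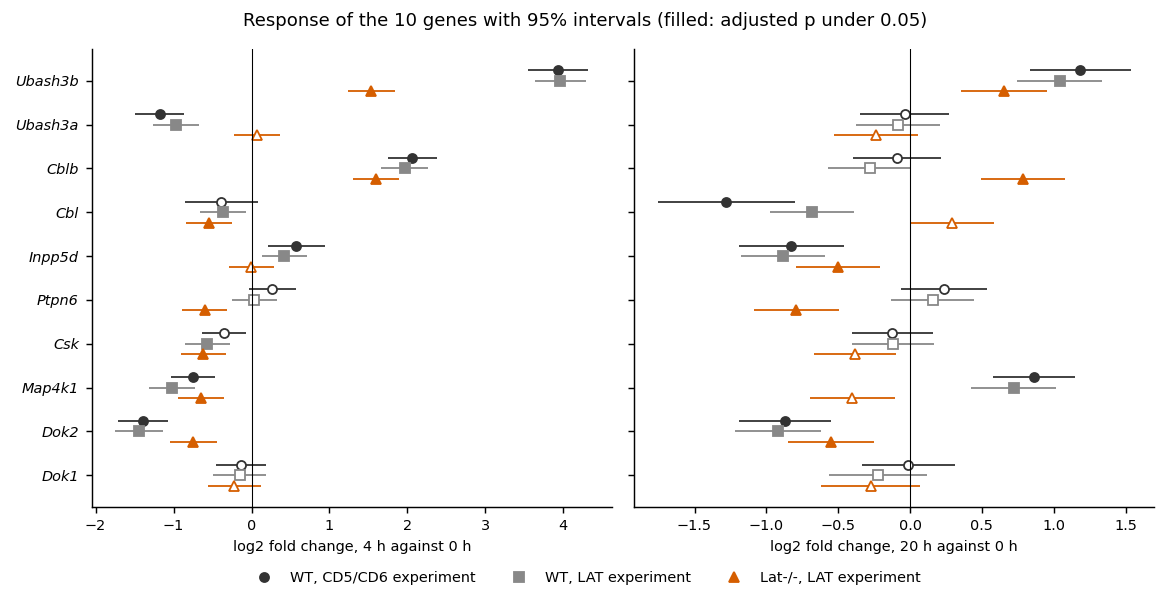
Log2 fold change of each gene at 4 h (left) and 20 h (right) against 0 h, with 95% intervals, in WT cells from the CD5/CD6 experiment (circles), WT cells of the LAT experiment (squares), and Lat-/- cells (triangles), filled where the adjusted p was under 0.05. *Ubash3b* and *Cblb* lie furthest to the right at 4 h, the intervals of both WT groups overlap for every gene, and in Lat-/- cells *Ubash3b* rises by 1.54 in place of 3.96 in WT cells.

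*Ubash3b*, which encodes the ZAP70 phosphatase STS-1, rose the most. WT cells from the CD5/CD6 experiment had 50.2, 44.8 and 58.1 CPM in libraries 1 to 3 at 0 h, 882, 822 and 633 at 4 h, and 118, 134 and 95.8 at 20 h. Each 4 h library stood above each 20 h library, which in turn stood above each 0 h library. The increase was 15.3-fold at 4 h (log2 fold change 3.93 ± 0.20 (SE), edgeR adjusted p = 3.85e-29) and 2.27-fold at 20 h (log2 fold change 1.18 ± 0.18 (SE), edgeR adjusted p = 2.43e-08). In WT cells of the LAT experiment, the values were 48.2, 32.1 and 52.8 CPM at 0 h, 758, 748 and 567 at 4 h, and 92.4, 85.7 and 96.2 at 20 h, in the same order and again without overlap (log2 fold change 3.96 ± 0.17 (SE), edgeR adjusted p = 1.50e-120 at 4 h; 1.04 ± 0.15 (SE), edgeR adjusted p = 5.53e-11 at 20 h).

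Its relative *Ubash3a*, whose product STS-2 has little phosphatase activity and binds CBL proteins and ubiquitin, moved the other way. In the CD5/CD6 experiment it had 138, 148 and 163 CPM at 0 h, 71.6, 72.6 and 54.7 at 4 h, and 161, 152 and 126 at 20 h. The 4 h libraries were all below the others (log2 fold change -1.18 ± 0.16 (SE), edgeR adjusted p = 1.81e-09), and the ranges at 0 h and 20 h overlapped (log2 fold change -0.037 ± 0.16, 95% interval -0.35 to 0.27). The fall at 4 h was also found in sorted WT cells, from 162, 163 and 151 to 72.1, 80.9 and 89.8 CPM (log2 fold change -0.97 ± 0.15 (SE), edgeR adjusted p = 1.19e-09). As a result, the ratio of *Ubash3b* to *Ubash3a* per length went from 0.463 to 0.557 at 0 h to 17.4 to 18.9 at 4 h and to 1.12 to 1.36 at 20 h over the 3 WT libraries. STS-2 RNA was thus the more abundant of the pair in resting cells and STS-1 RNA at 4 h.

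Among the ubiquitin ligases, *Cblb*, the CBL family member known for setting the CD28 requirement of T cells, rose at 4 h and at 20 h overlapped its 0 h level. Its WT values in the CD5/CD6 experiment were 205, 181 and 189 CPM at 0 h, 805, 883 and 719 at 4 h, and 186, 190.1 and 165 at 20 h. Every 4 h library exceeded every other library (log2 fold change 2.06 ± 0.16 (SE), edgeR adjusted p = 7.50e-19), and 0 h and 20 h overlapped (log2 fold change -0.09 ± 0.15, 95% interval -0.40 to 0.22). Sorted WT cells went from 195, 137 and 189 to 690.3, 838 and 507 CPM at 4 h (log2 fold change 1.97 ± 0.15 (SE), edgeR adjusted p = 3.19e-36) and to 163, 153 and 112 at 20 h. The 20 h level was called below that of 0 h only when 1 library was left out: the log2 fold change of -0.28 ± 0.15 (edgeR adjusted p = 0.139) became -0.43 (adjusted p = 0.00786) without WT library 2 at 0 h.

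*Cbl*, which encodes the ligase that marks TCR components and ZAP70, decreased with time. In the CD5/CD6 experiment it had 371, 389 and 267 CPM at 0 h, 274, 269 and 243 at 4 h, and 208, 126 and 89.6 at 20 h. The 20 h libraries were all below those of 0 h (log2 fold change -1.28 ± 0.24 (SE), edgeR adjusted p = 5.78e-06), while 0 h and 4 h overlapped (log2 fold change -0.39 ± 0.24 (SE), edgeR adjusted p = 0.264). In sorted cells it had 279.9, 113 and 278 CPM at 0 h, 152, 229 and 139 at 4 h, and 148, 141 and 129.7 at 20 h, so that library 2 was the lowest of the 0 h and the highest of the 4 h libraries and the groups overlapped. The fold changes were -0.37 ± 0.15 (SE), edgeR adjusted p = 0.0459, at 4 h and -0.68 ± 0.15 (SE), edgeR adjusted p = 2.43e-05, at 20 h. The 4 h call was lost by DESeq2 (adjusted p = 0.282), with the expression filter (0.254), with RLE factors (0.0630), and with these groups fitted alone (0.118). It was lost too without WT 0 h library 1 (adjusted p = 0.558) or 3 (0.553) and without WT 4 h library 1 (0.170) or 3 (0.256). Without WT library 2 of 0 h or of 4 h the log2 fold change was -0.69 or -0.65. *Cbl* has 12345 bases in its merged exons, and *Ubash3a* (11239), *Cblb* (10475), *Inpp5d* (7602), and *Ubash3b* (7326) also have over 7000. For each library, the median deviation from the group mean of genes with at most 3000 exon bases was subtracted from that of genes with at least 7000. On the log2 scale, the result was -0.53 in WT 0 h library 2 of the LAT experiment. *Cblb* and *Ubash3b* were lowest of their group there too, while *Ubash3a* and *Inpp5d* were not. In the CD5/CD6 experiment, library 3 was negative in every group, from -0.60 to -0.0078 (Cd6-/- at 0 h and 4 h). At 20 h it was between -0.46 and -0.36. That library had the lowest *Cbl*, *Inpp5d*, *Ubash3b*, and *Ubash3a* in each genotype, and the lowest *Cblb* in all but Cd6-/- cells. The part of this in these values was not tested. From 4 h to 20 h *Cbl* was not called in sorted cells (log2 fold change -0.31 ± 0.15 (SE), edgeR adjusted p = 0.106) unless WT 4 h library 3 was left out (adjusted p = 0.0216). Per length, the ratio of *Cblb* to *Cbl* rose from 0.548 to 0.835 at 0 h to 3.46 to 3.87 at 4 h and was 1.05 to 2.16 at 20 h.

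The phosphatase genes differed. *Inpp5d*, encoding the lipid phosphatase SHIP1, had 163, 165 and 209 CPM at 0 h in the CD5/CD6 experiment, 293, 283 and 224 at 4 h, and 126, 107 and 69.5 at 20 h. The 4 h libraries were the highest and the 20 h libraries the lowest, with no overlap, for a rise at 4 h (log2 fold change 0.57 ± 0.18 (SE), edgeR adjusted p = 0.0101) and a fall at 20 h (log2 fold change -0.83 ± 0.18 (SE), edgeR adjusted p = 1.03e-04). Sorted cells had 205, 181 and 178 CPM at 0 h, 254, 314 and 187 at 4 h, and 107, 112 and 86.6 at 20 h. There, 0 h and 4 h overlapped (log2 fold change 0.42 ± 0.15 (SE), edgeR adjusted p = 0.0181), and 20 h was below both (log2 fold change -0.88 ± 0.15 (SE), edgeR adjusted p = 2.54e-08). The call at 4 h was lost under several settings. In the CD5/CD6 experiment the adjusted p was 0.0529 without WT 0 h library 1, 0.0584 without WT 4 h library 1, and 0.212 with library totals in place of TMM factors. In the LAT experiment it was 0.0773 without WT 0 h library 3, 0.0896 without WT 4 h library 1, 0.512 (log2 fold change 0.20) without WT 4 h library 2. It was also 0.462 with library totals, 0.121 with these groups fitted alone, and 0.0527 by DESeq2. *Ptpn6*, encoding the tyrosine phosphatase SHP1, did not pass the test at either time. Its levels were 227, 300.3 and 301 CPM at 0 h, 385, 305 and 307 at 4 h, and 321, 346 and 309 at 20 h (log2 fold changes of 0.27 ± 0.15 with a 95% interval of -0.034 to 0.57, and 0.24 ± 0.15 with -0.064 to 0.54), and in sorted WT cells the intervals were -0.25 to 0.33 and -0.13 to 0.45. B and myeloid cells, whose marker RNA was lost from the enriched libraries by 20 h, also express both genes, and the part of this loss was not tested.

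Of the kinases, *Map4k1*, encoding HPK1, fell first and then rose above its starting level. WT cells from the CD5/CD6 experiment had 119.8, 124 and 144 CPM at 0 h, 76.2, 74.7 and 79.6 at 4 h, and 228, 236 and 241 at 20 h, and those of the LAT experiment 152, 153 and 131, then 69.2, 66.1 and 80.1, then 228, 242 and 248. The 3 times did not overlap in either experiment. Against 0 h, the 4 h fold changes were -0.75 ± 0.14 (SE), edgeR adjusted p = 1.07e-05, and -1.02 ± 0.15 (SE), edgeR adjusted p = 1.95e-10, and those of 20 h were 0.86 ± 0.14 (SE), edgeR adjusted p = 4.14e-07, and 0.72 ± 0.15 (SE), edgeR adjusted p = 8.01e-06. *Csk* had smaller fold changes. It had 548, 562 and 673 CPM at 0 h, 488, 424 and 486 at 4 h, and 581, 523 and 532 at 20 h in the CD5/CD6 experiment, the 4 h libraries being the lowest without overlap. The difference at 4 h had an adjusted p just above the threshold (log2 fold change -0.35 ± 0.14 (SE), edgeR adjusted p = 0.0527) and passed with the replicate number as a block (adjusted p = 0.00577), same-numbered libraries being taken as paired in this comparison. It also passed by DESeq2 (2.49e-04), with the expression filter (0.00444), with RLE factors (0.0316), and with library totals (4.67e-05). Sorted cells showed a decrease from 622, 772 and 619 to 478, 452 and 429 CPM at 4 h (log2 fold change -0.57 ± 0.15 (SE), edgeR adjusted p = 5.94e-04), with 608, 647 and 597 at 20 h. The later rise of *Csk* from 4 h to 20 h in these cells (log2 fold change 0.45 ± 0.15 (SE), edgeR adjusted p = 0.00981) did not pass without WT 20 h library 2 (adjusted p = 0.0583).

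The adaptor gene *Dok2* decreased at both times. It had 102, 114 and 106 CPM at 0 h, 36.0, 42.9 and 44.1 at 4 h, and 59.1, 50.6 and 66.4 at 20 h in the CD5/CD6 experiment, the 0 h libraries being highest and the 4 h libraries lowest with no overlap. The decrease was -1.39 ± 0.16 (SE), edgeR adjusted p = 2.03e-11, at 4 h and -0.87 ± 0.16 (SE), edgeR adjusted p = 3.80e-06, at 20 h, and in sorted WT cells -1.44 ± 0.16 (SE), edgeR adjusted p = 3.74e-19, and -0.92 ± 0.15 (SE), edgeR adjusted p = 1.46e-08. Its partial return from 4 h to 20 h in the CD5/CD6 experiment (log2 fold change 0.52 ± 0.16 (SE), edgeR adjusted p = 0.00739) did not pass without WT 20 h library 3 (adjusted p = 0.0711) or WT 4 h library 1 (0.0570). *Dok1*, the other member of the pair, changed little, with 23.5, 25.4 and 30.1 CPM at 0 h, 25.5, 24.4 and 22.0 at 4 h, and 22.9, 26.5 and 29.0 at 20 h, and was called in 0 of the 35 comparisons. Its 95% intervals against 0 h in WT cells were -0.46 to 0.19 and -0.34 to 0.31, and in sorted cells -0.49 to 0.19 and -0.56 to 0.12, so that a change by more than 1 log2 unit in either direction is outside them. Per length, the ratio of *Dok2* to *Dok1* went from 2.40 to 3.05 at 0 h to 0.959 to 1.36 at 4 h and 1.30 to 1.76 at 20 h.

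**Figure D3:**
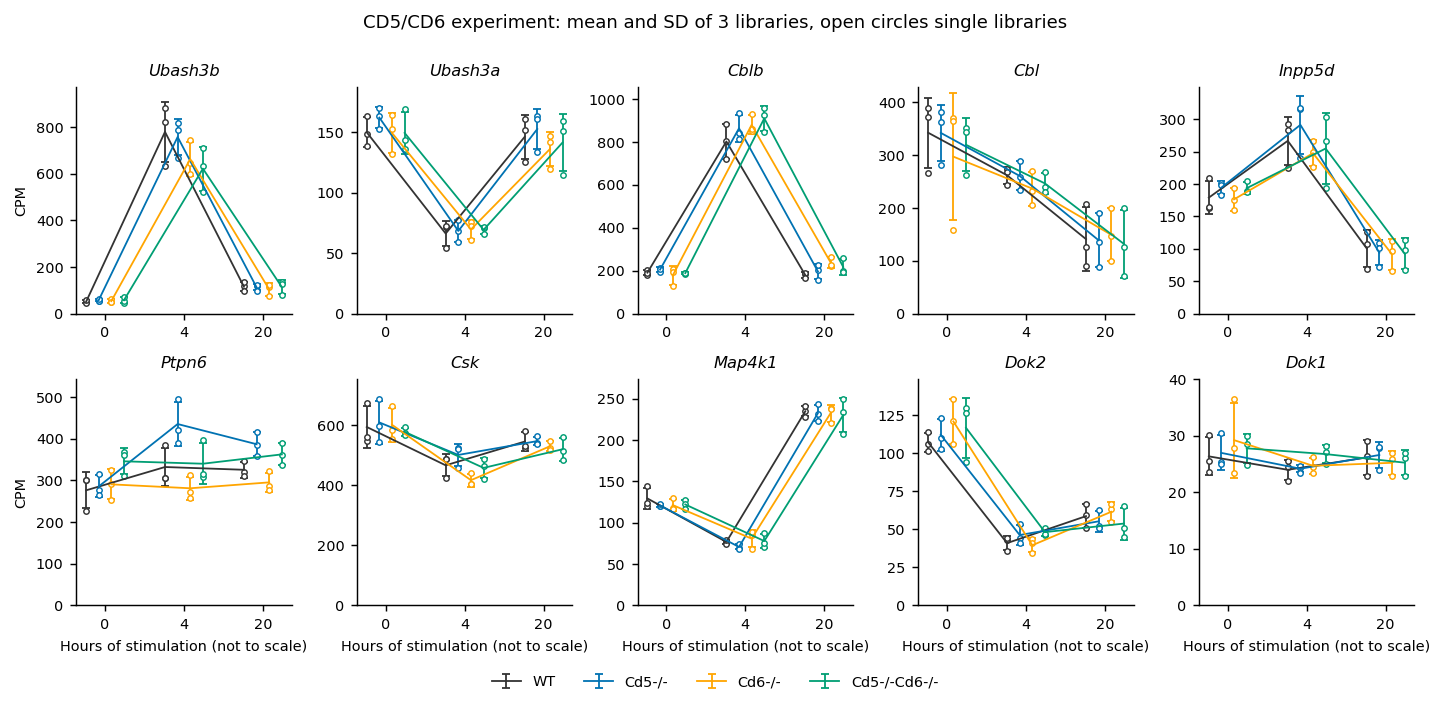
CPM of the 10 genes in the CD5/CD6 experiment against hours of stimulation (spacing not to scale), with WT, Cd5-/-, Cd6-/-, and Cd5-/-Cd6-/- cells offset side by side, lines joining the means, bars the SD, and open circles the 3 libraries. The 4 genotypes rise and fall at the same times for *Ubash3b*, *Ubash3a*, *Cblb*, and *Map4k1*, *Ptpn6* at 4 h is highest in Cd5-/- cells (391 to 494 CPM), and library 3 is lowest for *Cbl* at 20 h in every genotype.

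Loss of CD5, CD6, or both moved none of the 10 genes past the test. Over 3 knockouts and 3 times, 0 of 90 tests against WT cells were called by edgeR (and 0 by DESeq2), and 3 had an unadjusted p under 0.05. These were *Ptpn6* in Cd5-/- cells at 4 h (log2 fold change 0.39 ± 0.15, edgeR adjusted p = 0.866), *Cblb* in Cd6-/- cells at 20 h (0.41 ± 0.15, adjusted p = 1.00), and *Ptpn6* in Cd5-/-Cd6-/- cells at 0 h (0.32 ± 0.15, adjusted p = 1.00). Few of the 32290 genes were called at all. For Cd5-/- cells the share was 0.0619% (0 h), 0.0867% (4 h), and 0.0217% (20 h). It was 0.0%, 0.0031%, and 0.0186% for Cd6-/- cells and 0.0279%, 0.0434%, and 0.0465% for Cd5-/-Cd6-/- cells at the same times. Without the 2 libraries that went against their labels, 16 genes were higher and 197 lower in Cd5-/- cells at 0 h (in place of 2 and 18), and 18 higher and 3 lower in Cd6-/- cells (in place of 0 and 0), and 0 of the 10 genes were among them. The estimates of the 10 genes ran from -0.33 to 0.41 on the log2 scale, and their 95% intervals reached from -0.68 (*Cbl*, Cd6-/- at 0 h) to 0.72 (*Cblb*, Cd6-/- at 20 h), so that all 90 intervals lay within a fold change of 2 in either direction. Those of Cd5-/- and Cd6-/- cells at 0 h include the libraries that went against their labels.

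The responses themselves were compared as well. Of 60 differences between a knockout's response and that of WT cells, 0 were called and 2 had an unadjusted p under 0.05, namely *Cblb* in Cd6-/- cells at 20 h (0.52 ± 0.22, edgeR adjusted p = 1) and *Ubash3b* in Cd5-/-Cd6-/- cells at 4 h (-0.51 ± 0.25, adjusted p = 1). Over all genes, 0.0031% and 0.0031% were called in Cd5-/- cells at 4 h and 20 h, 0.0% and 0.0031% in Cd6-/- cells, and 0.0% and 0.0% in Cd5-/-Cd6-/- cells. Without both 0 h libraries that went against their labels, the 20 h response was called higher than in WT cells for 26 genes and lower for 2 in Cd5-/- cells and for 5 and 0 in Cd6-/- cells, with 0 of the 10 genes among them. Of the 60 intervals, 59 lay within a fold change of 2, the exception being *Ubash3b* in Cd5-/-Cd6-/- cells at 4 h. Those of Cd5-/- and Cd6-/- cells rest on 0 h groups that include the libraries that went against their labels. In single libraries, *Ubash3b* at 4 h had 815, 789 and 668 CPM in Cd5-/- cells, 743, 647 and 598 in Cd6-/- cells, and 709, 633 and 523 in Cd5-/-Cd6-/- cells, all of which overlapped the WT range of 633 to 882. Each library of Cd6-/- and of Cd5-/-Cd6-/- cells was below the WT library of its own number, which was taken to pair the libraries of these comparisons, and the fit with the replicate block gave log2 fold changes of -0.23 and -0.32 (edgeR adjusted p = 1 in both). *Ptpn6* at 4 h had 494, 421 and 391 CPM in Cd5-/- cells, above the WT range of 305 to 385 without overlap. *Cblb* at 20 h had 224, 267 and 227 CPM in Cd6-/- cells, above the WT range of 165 to 190.1 without overlap. Ranges lay apart from WT in other cases too. *Cblb* had 193 to 262 CPM in Cd5-/-Cd6-/- cells at 20 h. *Ptpn6* had 359 to 417 in Cd5-/- cells at 20 h (WT 309 to 346) and 310 to 367 in Cd5-/-Cd6-/- cells at 0 h (WT 227 to 301). At 4 h, *Dok2* had 46.6 to 50.7 in Cd5-/-Cd6-/- cells (WT 36.0 to 44.1), and *Map4k1* 68.6 to 74.2 in Cd5-/- cells (WT 74.7 to 79.6). None of these was called.

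Within each knockout, the response of the 10 genes resembled that of WT cells. At 4 h, 4 rose and 3 fell in Cd5-/- cells (28.4% of all genes called in either direction), 3 rose and 4 fell in Cd6-/- cells (27.2%), and 2 rose and 3 fell in Cd5-/-Cd6-/- cells (26.4%). At 20 h the counts were 3 and 3 (38.1%), 3 and 3 (36.8%), and 2 and 3 (38.3%). *Ubash3b* rose by 3.70, 3.60, and 3.42 on the log2 scale at 4 h in the 3 knockouts, in that order, and *Cblb* by 2.07, 2.30, and 2.26. Genes called in a knockout but not in WT cells were *Ptpn6* in Cd5-/- cells at 4 h (log2 fold change 0.61 ± 0.15 (SE), edgeR adjusted p = 7.38e-04) and 20 h (0.44 ± 0.15 (SE), edgeR adjusted p = 0.0145), *Csk* in Cd6-/- cells at 4 h (-0.53 ± 0.14 (SE), edgeR adjusted p = 0.00184), and *Cblb* in Cd6-/- cells at 20 h (0.43 ± 0.15 (SE), edgeR adjusted p = 0.0218). In none of these was the response called different from that of WT cells. *Inpp5d* was not called in Cd5-/-Cd6-/- cells at 4 h (adjusted p = 0.110) but was with the replicate block (0.0290). The block also brought *Csk* past the test at 4 h in WT (0.00577), Cd5-/- (0.0326), and Cd5-/-Cd6-/- cells (0.00843) and *Cbl* in Cd5-/- cells (0.0481), all in comparisons taken as paired.

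Several of these calls rested on single libraries. The edgeR call of *Ptpn6* in Cd5-/- cells at 20 h was lost without library 2 of 0 h (adjusted p = 0.0739), without library 2 of 20 h (0.0637), and without both 0 h libraries that went against their labels (0.116). That of *Cblb* in Cd6-/- cells at 20 h was lost without library 3 of 0 h (0.306, log2 fold change 0.24) or library 2 of 20 h (0.102). The calls of *Ptpn6* and *Cblb* were lost too with library totals (0.0795 and 0.117) and with the compared groups fitted alone (0.0744 and 0.0768). *Inpp5d* at 4 h in Cd6-/- cells (log2 fold change 0.49 ± 0.18 (SE), edgeR adjusted p = 0.0350) did not pass without library 1 (0.0651) or 3 of 0 h (0.0858) or library 1 (0.121) or 2 of 4 h (0.0605). *Cbl* at 4 h in Cd6-/- cells was called only without library 3 of 0 h (0.00857), a library that had 158 CPM of *Cbl* beside 369 and 364 in libraries 1 and 2. The deviation of long minus short genes (defined above) was -0.60 in that library. *Cblb* had 129 CPM there, beside 211 and 195 in libraries 1 and 2. The part of this deviation in the *Cbl* and *Cblb* results was not tested. *Inpp5d* in Cd5-/-Cd6-/- cells at 4 h was called without library 3 of 4 h (0.0153). Leaving out both 0 h libraries that went against their labels changed no other call among the 10 genes.

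**Figure D4:**
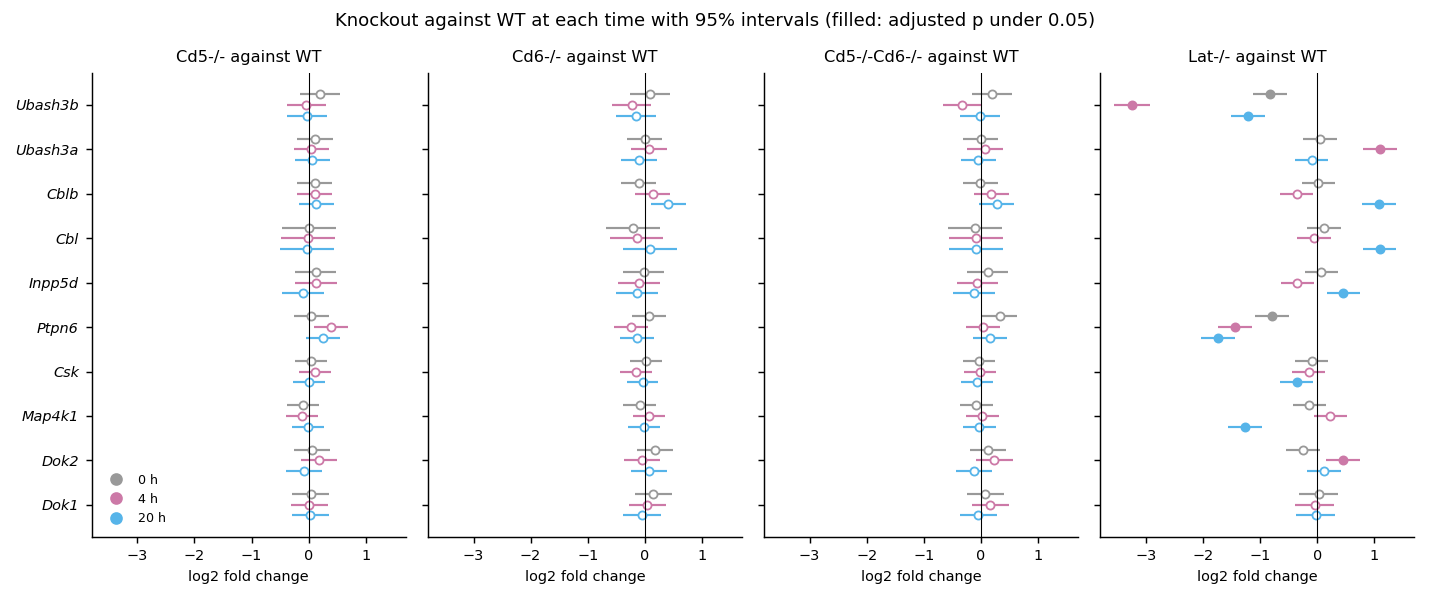
Log2 fold change of each gene in knockout against WT cells at 0 h, 4 h, and 20 h, with 95% intervals, for Cd5-/-, Cd6-/-, Cd5-/-Cd6-/-, and Lat-/- cells, filled where the adjusted p was under 0.05. Every symbol in the first 3 panels is open and lies between -0.33 and 0.41, and the Lat-/- panel holds 13 filled symbols, the lowest at -3.25 for *Ubash3b* at 4 h.

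Without LAT, some of the 10 genes departed from the WT course, in both directions. Unstimulated, *Ubash3b* and *Ptpn6* were lower in Lat-/- than in WT cells (2 of 10 beside 1.18% of all genes) and 0 of 10 were higher (beside 0.41%). After 4 h, *Ubash3a* and *Dok2* were higher (2 of 10 beside 11.9%) and *Ubash3b* and *Ptpn6* lower (2 of 10 beside 12.0%). After 20 h, *Cbl*, *Cblb*, and *Inpp5d* were higher (3 of 10 beside 17.6%) and *Ptpn6*, *Map4k1*, *Ubash3b*, and *Csk* lower (4 of 10 beside 17.6%). Among the 13928 filtered genes, 49.1% differed in either direction at 4 h and 69.0% at 20 h, and 4 and 7 of the 10 did in that table.

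**Figure D5:**
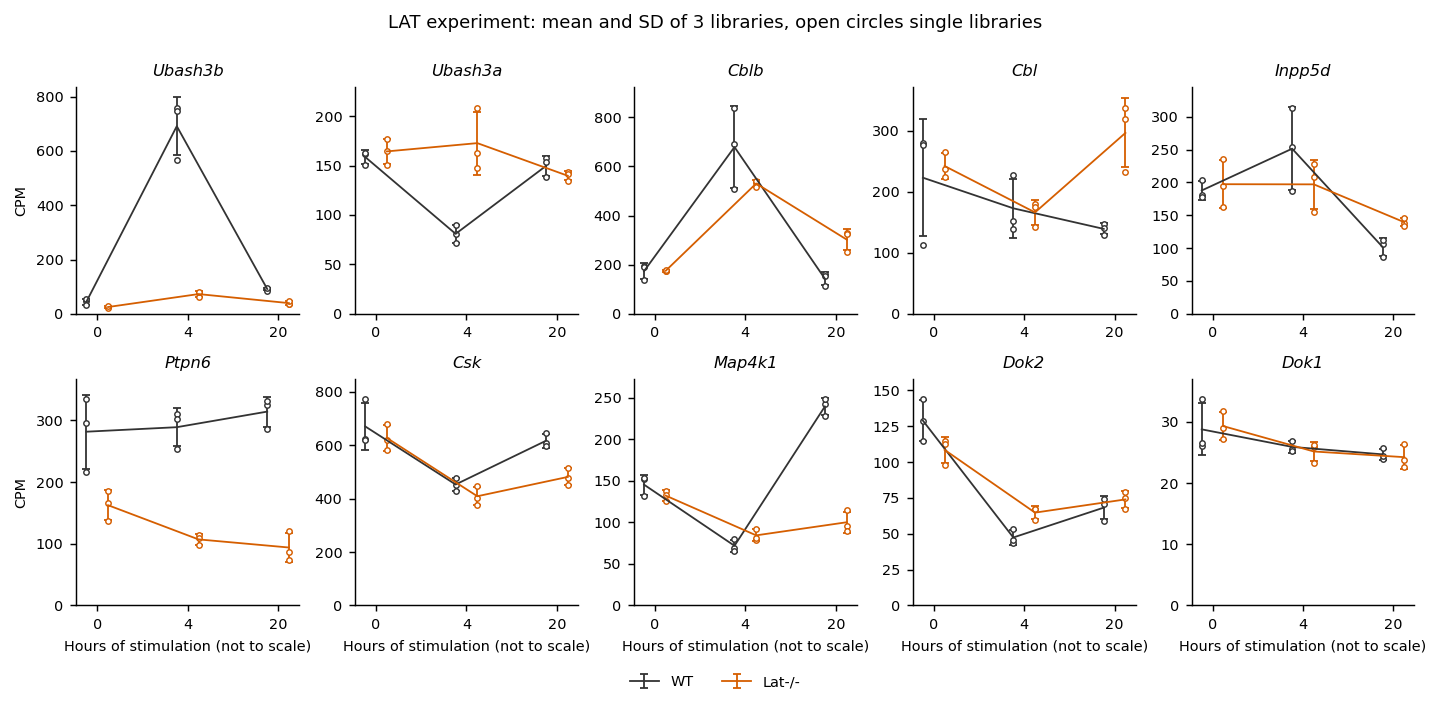
CPM of the 10 genes in WT and Lat-/- cells of the LAT experiment against hours of stimulation (spacing not to scale), lines joining the means, bars the SD, and open circles the 3 libraries. At 4 h, *Ubash3b* stays at 61.0 to 79.6 CPM in Lat-/- cells and reaches 567 to 758 in WT cells, and *Ptpn6* is lower in Lat-/- cells at each time.

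The largest difference was that of *Ubash3b*. Lat-/- cells had 25.2, 20.8 and 29.2 CPM at 0 h, 77.5, 61.0 and 79.6 at 4 h, and 34.4, 37.0 and 46.8 at 20 h, where WT cells had 32.1 to 52.8, 567 to 758, and 85.7 to 96.2. The knockout libraries were below those of WT at each time, with no overlap (log2 fold change -0.82 ± 0.15 (SE), edgeR adjusted p = 1.70e-05 at 0 h; -3.25 ± 0.16 (SE), edgeR adjusted p = 4.93e-86 at 4 h; -1.21 ± 0.15 (SE), edgeR adjusted p = 1.72e-14 at 20 h). *Ubash3b* still rose in Lat-/- cells at 4 h (log2 fold change 1.54 ± 0.16 (SE), edgeR adjusted p = 4.31e-21) and 20 h (0.65 ± 0.15 (SE), edgeR adjusted p = 4.52e-04), and the 4 h response was smaller than that of WT cells by a log2 difference of -2.42 ± 0.22 (SE), edgeR adjusted p = 2.35e-26. *Ubash3a*, in contrast, did not show the WT decrease: Lat-/- cells had 162, 208 and 147 CPM at 4 h, above all WT libraries (72.1 to 89.8; log2 fold change 1.09 ± 0.15 (SE), edgeR adjusted p = 9.55e-12), and their own change from 0 h had a 95% interval of -0.22 to 0.36. The response difference was 1.04 ± 0.21 (SE), edgeR adjusted p = 1.69e-05. The ratio of *Ubash3b* to *Ubash3a* per length was 0.449 to 0.828 at 4 h in Lat-/- cells and 9.68 to 16.1 in WT cells, so that STS-2 RNA remained the more abundant of the pair without LAT.

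*Cblb* rose at 4 h with or without LAT. Lat-/- libraries had 173, 174 and 179 CPM at 0 h and 534, 515 and 542 at 4 h (log2 fold change 1.60 ± 0.15 (SE), edgeR adjusted p = 5.31e-24), and these 4 h values overlapped the WT range of 507 to 838. The log2 difference from WT at 4 h was -0.36 ± 0.15 (SE), edgeR adjusted p = 0.0638, and passed without WT 4 h library 3 (adjusted p = 0.00441). The genotypes parted later: at 20 h *Cblb* was still at 329.6, 326 and 251 CPM in Lat-/- cells, above all WT libraries (112 to 163), with 1.08 ± 0.15 (SE), edgeR adjusted p = 3.48e-12, and a response difference of 1.07 ± 0.21 (SE), edgeR adjusted p = 2.94e-06. *Cbl* behaved alike at 20 h. Lat-/- cells had 320.2, 338 and 232 CPM, above the WT range of 129.7 to 148 (log2 fold change 1.09 ± 0.15 (SE), edgeR adjusted p = 2.92e-12), and their 20 h response exceeded that of WT cells by 0.97 ± 0.21 (SE), edgeR adjusted p = 2.80e-05. At 4 h *Cbl* had decreased in Lat-/- cells, to 180.0, 143 and 176 CPM (log2 fold change -0.54 ± 0.15 (SE), edgeR adjusted p = 0.00275), a call lost without library 2 of 4 h (adjusted p = 0.0654), by DESeq2 (0.121), and with the expression filter (0.125). It rose from 4 h to 20 h (log2 fold change 0.83 ± 0.15 (SE), edgeR adjusted p = 1.01e-06).

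*Ptpn6* was lower in Lat-/- cells throughout. They had 166, 185 and 137 CPM at 0 h, 115, 109 and 97.6 at 4 h, and 86.4, 74.3 and 121 at 20 h, beside 295, 334 and 216, then 311, 302 and 254, then 325, 332 and 286 in WT cells. All Lat-/- libraries were below all WT libraries at each time (log2 fold change -0.79 ± 0.15 (SE), edgeR adjusted p = 2.27e-05 at 0 h; -1.43 ± 0.15 (SE), edgeR adjusted p = 1.32e-19 at 4 h; -1.74 ± 0.15 (SE), edgeR adjusted p = 7.47e-29 at 20 h). Within Lat-/- cells it fell at 4 h (-0.60 ± 0.15 (SE), edgeR adjusted p = 7.15e-04) and 20 h (-0.79 ± 0.15 (SE), edgeR adjusted p = 4.82e-06), and the difference from the WT response was -0.95 ± 0.21 (SE), edgeR adjusted p = 4.67e-05, at 20 h and -0.64 ± 0.21 (SE), edgeR adjusted p = 0.0189, at 4 h. The call for the 4 h difference was lost without library 2 of Lat-/- at 0 h (adjusted p = 0.0963), library 3 of Lat-/- at 4 h (0.0649), library 3 of WT at 0 h (0.163), and library 1 (0.0876) or 2 of WT at 4 h (0.0634), by DESeq2 (0.0660), with the expression filter (0.0602), with library totals (0.113), and with these groups fitted alone (0.0503). The regulatory T cell markers Foxp3 and Ikzf2 differed as well. Their summed level ran from 19.5 to 34.8 CPM in Lat-/- and from 60.6 to 91.1 in WT cells at 0 h, and its part in the result was not tested. *Inpp5d*, the other phosphatase gene, was higher in Lat-/- cells at 20 h, with 139, 146 and 134 CPM beside 86.6 to 112 in WT cells (log2 fold change 0.45 ± 0.15 (SE), edgeR adjusted p = 0.00784). Its adjusted p was 0.117 without WT library 3 of 20 h and 0.0563 by DESeq2. At 4 h, it was at 208, 228 and 156 CPM and overlapped WT cells (log2 fold change -0.35 ± 0.15 (SE), edgeR adjusted p = 0.0724), and passed without WT 4 h library 3 (adjusted p = 0.00475). Its response difference at 4 h, not called with all libraries (adjusted p = 0.202), was called without that library (0.0263).

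The late rise of *Map4k1* in WT cells was not found without LAT. Lat-/- cells had 138, 133 and 125 CPM at 0 h, 78.8, 81.6 and 92.5 at 4 h, and 95.9, 89.9 and 114 at 20 h, and at 20 h each was below each WT library (228 to 248). The early decrease was called in Lat-/- cells too (log2 fold change -0.65 ± 0.15 (SE), edgeR adjusted p = 2.43e-04), and the 20 h level was lower than in WT cells (-1.26 ± 0.15 (SE), edgeR adjusted p = 1.05e-15), with a response difference of -1.12 ± 0.21 (SE), edgeR adjusted p = 1.12e-06. The 20 h level of Lat-/- cells against their own 0 h level gave -0.40 ± 0.15 (SE), edgeR adjusted p = 0.0654, called without Lat-/- library 3 of 20 h (adjusted p = 0.0236) and by DESeq2 (0.0112). This fall was called too with library totals (0.0240), with the expression filter (0.0206), and with these groups fitted alone (0.0162). *Csk* had 621, 678 and 584 CPM at 0 h, 404, 446 and 377 at 4 h, and 452, 478 and 515 at 20 h in Lat-/- cells. It fell at 4 h (log2 fold change -0.62 ± 0.15 (SE), edgeR adjusted p = 3.72e-04) and at 20 h was below the WT range of 597 to 647 (log2 fold change -0.36 ± 0.15 (SE), edgeR adjusted p = 0.0420). This call was lost without any 1 of 5 libraries, namely Lat-/- library 1 (adjusted p = 0.248) or 2 (0.146) and WT library 1 (0.0842), 2 (0.150), or 3 (0.0679) of 20 h. Against 0 h, *Csk* at 20 h in Lat-/- cells was not called by the edgeR fit used throughout. It was called lower by DESeq2 (adjusted p = 0.01355) and by edgeR with library totals (0.0220), the expression filter (0.0284), or these groups fitted alone (0.0331).

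The *Dok2* decrease was smaller without LAT at 4 h. Lat-/- cells had 115, 113 and 97.9 CPM at 0 h, 59.7, 67.4 and 67.1 at 4 h, and 67.6, 75.1 and 79.1 at 20 h. At 4 h they were above the WT range of 43.2 to 53.0 (log2 fold change 0.45 ± 0.15 (SE), edgeR adjusted p = 0.0171), and at 20 h the genotypes overlapped (95% interval -0.18 to 0.42). The 4 h call was lost without Lat-/- library 3 (adjusted p = 0.0580) or WT library 1 (0.0805) or 2 (0.0509) of 4 h. *Dok2* fell in Lat-/- cells at 4 h (log2 fold change -0.75 ± 0.15 (SE), edgeR adjusted p = 2.18e-05) and 20 h (-0.55 ± 0.15 (SE), edgeR adjusted p = 0.00451), the latter call being lost without Lat-/- library 1 of 20 h (0.0778). The 4 h responses differed by 0.70 ± 0.22 (SE), edgeR adjusted p = 0.0110, lost without Lat-/- library 3 of 0 h (0.0535). *Dok1* had 28.9, 27.2 and 31.8 CPM at 0 h, 23.3, 25.9 and 26.2 at 4 h, and 26.3, 22.6 and 23.8 at 20 h in Lat-/- cells, with intervals against WT of -0.31 to 0.37, -0.39 to 0.30, and -0.37 to 0.31 at the 3 times.

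Counted over the 10 genes, Lat-/- cells responded at 4 h with 2 genes higher (beside 7.38% of all genes) and 5 lower (beside 8.05%) than at 0 h. Of the 13928 filtered genes, 2217 were higher and 2188 lower in this comparison, and 1388 and 1406 at 20 h against 0 h. At 20 h, *Cblb* and *Ubash3b* were higher (2 beside 5.35%) and *Ptpn6*, *Dok2*, and *Inpp5d* lower (3 beside 5.34%). For *Inpp5d* (log2 fold change -0.50 ± 0.15 (SE), edgeR adjusted p = 0.0104), the call was lost without Lat-/- library 2 of 0 h (0.210) or library 1 of 20 h (0.0646) and with the expression filter (0.0567). From 4 h to 20 h, *Cbl* rose (1 beside 5.39%) and *Ubash3b*, *Cblb*, and *Inpp5d* fell (3 beside 4.74%). The *Inpp5d* call was lost without Lat-/- library 1 (adjusted p = 0.155) or 2 of 4 h (0.249) or library 1 (0.0921) or 2 of 20 h (0.0507) and with the expression filter (0.0504). The Lat-/- response differed from the WT response at 4 h in 4 genes, *Ubash3a* and *Dok2* (2 beside 7.42%, with a higher value in Lat-/- cells) and *Ubash3b* and *Ptpn6* (2 beside 7.58%). At 20 h it differed in 4 genes, *Cblb* and *Cbl* (2 beside 13.5%) and *Map4k1* and *Ptpn6* (2 beside 12.8%). The responses of *Dok1*, *Csk*, and *Inpp5d* were called different at neither time. Of the 13928 filtered genes, 2093 had a higher and 2291 a lower response than in WT cells at 4 h, and 3796 and 3739 at 20 h. In the same libraries at 20 h, the summed level of 4 naive T cell markers (such as Ccr7 and Lef1) ran from 6756 to 8067 CPM in Lat-/- and from 2126 to 2284 in WT cells. The part of this in the results above was not tested.

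Other inhibitors of proximal TCR signaling were counted for comparison, 18 genes of phosphatases, adaptors, ligases, and lipid kinases such as *Ptpn22*, *Pag1*, *Dgka*, and *Itch*. In WT cells from the CD5/CD6 experiment, 5 rose (beside 13.3% of all genes) and 6 fell (15.2%) at 4 h. At 20 h 4 rose (16.9%) and 11 fell (21.1%), with a median log2 fold change of -0.94 beside -0.16 for the filtered genes. By the lowest p at 20 h, the examples were *Sit1*, encoding a transmembrane adaptor that binds SHP2 and CSK (-3.29, edgeR adjusted p = 5.76e-26), and *Dgka*, encoding a kinase that removes diacylglycerol (-2.37, adjusted p = 5.54e-21). Both were lower. Among those that were higher were *Dusp22*, encoding a phosphatase of LCK (1.22, edgeR adjusted p = 2.50e-07), and *Ndfip1*, encoding an activator of the ligase ITCH (0.69, adjusted p = 2.34e-04). In sorted WT cells, 7 rose (14.2%) and 7 fell (14.8%) at 4 h, and 5 rose (16.5%) and 10 fell (18.2%) at 20 h. Against WT, Lat-/- cells had 0 of the 18 genes called in either direction at 0 h, 6 higher (11.9%) and 6 lower (12.0%) at 4 h, and 10 higher (17.6%) and 6 lower (17.6%) at 20 h. The values of the same 4 genes at 20 h were 1.93 (*Sit1*), 1.88 (*Dgka*), -1.12 (*Dusp22*), and -0.41 (*Ndfip1*). In Cd5-/-, Cd6-/-, and Cd5-/-Cd6-/- cells, 0 of the 18 were called against WT at any time.

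As relatives of the 10 genes, 9 chosen members of the CBL, DOK, SHIP, SHP, CSK, and MAP4K families were counted. In WT cells from the CD5/CD6 experiment at 20 h, 2 rose (beside 16.9% of all genes) and 6 fell (21.1%). The CSK homolog *Matk* (-2.91, edgeR adjusted p = 1.02e-18) and the MAP4K member *Map4k3* (-2.52, adjusted p = 2.41e-18) were lower, while *Inppl1*, encoding SHIP2 (1.65, adjusted p = 4.94e-09), and *Ptpn11*, encoding SHP2 (0.66, adjusted p = 6.61e-04), were higher. Relatives thus moved apart at 20 h, *Map4k1* being higher and *Map4k3* lower, and *Inpp5d* lower and *Inppl1* higher. Of the 8 relatives tested in the LAT experiment, 6 were higher (beside 17.6% of all genes) and 2 lower (17.6%) in Lat-/- than in WT cells at 20 h, when 69.0% of the filtered genes differed in either direction. Of 4 further genes, whose proteins the study names as partners of CD5 or CD6, *Arhgap45* (-3.32, edgeR adjusted p = 2.44e-24), *Grk6* (-1.49, adjusted p = 8.04e-15), and *Ankrd13a* (-1.04, adjusted p = 3.20e-07) were lower at 20 h in WT cells, and *Csnk2a1* (0.25, adjusted p = 0.170) was not called. In Lat-/- cells at 20 h, 3 of the 4 were higher than in WT cells and 0 lower, beside 17.6% and 17.6% of all genes.

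For each gene, the 2 genes with the most similar log2 CPM over the 36 libraries of the CD5/CD6 experiment were taken among 10787 genes, with the correlation over the 18 libraries of the LAT experiment beside it. All libraries share the times of stimulation, so these values describe a common course and carry no p. *Ubash3b* was most like *Nab2* (r = 0.99 and 0.89) and *Surf6* (0.99 and 0.97), *Cblb* most like *Fosl2* (r = 0.99 and 0.88) and *Slc41a1* (0.99 and 0.83), and *Inpp5d* most like *Tnks1bp1* (r = 0.99 and 0.91) and *Iffo2* (0.98 and 0.71). *Map4k1* went with *Tedc1* (r = 0.99 and 0.91) and *Knstrn* (0.99 and 0.85), *Dok2* with *Flt3l* (r = 0.97 and 0.97) and *Cbx8* (0.97 and 0.92), and *Cbl* with *Tnks* (r = 0.98 and 0.90) and *Phc3* (0.98 and 0.91). *Ubash3a*, whose best matches were *Ttc21b* (r = 0.97 and 0.61) and *Sfxn2* (0.97 and 0.61), and *Csk*, with *Fermt3* (r = 0.92 and 0.96) and *Pigk* (0.92 and 0.20), were less alike in the LAT experiment for at least 1 of the pair. Lower correlations were found for *Ptpn6*, with *Gm10505* (r = 0.72 and 0.67) and *Id3* (0.70 and 0.80), and *Dok1*, with *Creg1* (r = 0.77 and 0.22) and *Cst3* (0.75 and 0.44), the 2 genes that were not called in WT cells of either experiment.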

How the data were processed

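Bulk RNA-seq of 54 libraries was analysed from the deposited count tables, 1 per experiment. The authors made these counts from single reads of stranded mRNA libraries with bcl2fastq 2.17.1.14, STAR on GRCm38 (mm10), and featureCounts, with no normalization. The annotation release and the strand setting of the counting are not given in the sources used here. Gene IDs were named with GENCODE M21 (55144 of 55385 named), which also gave positions and merged exon lengths. Groups came from the labels.

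Counts were fitted with the quasi-likelihood model of edgeR 4.0.16 (R 4.3.3) and TMM factors, with all groups of an experiment in 1 fit and genes with at least 1 read kept. Contrasts compared times within a genotype, a knockout with WT cells at each time, and their responses, and p-values were adjusted over all genes of the experiment. CPM values use TMM-scaled totals, and intervals are 95% intervals of the fit. For the most similar genes, CPM was put on the log2 scale with 2 as prior count, over genes that averaged 50 counts or more. From the marker lists, 2 genes are not reported here. The 10 genes and all lists were chosen with earlier results of these data known. The genes named were the 10 members, the targeted genes, the list genes with the lowest p at 20 h in WT cells (up to 4 a list, from both directions), and the 2 genes most like each member. *Ptprj* was added after its values were seen, and *Ptpn22*, *Pag1*, and *Itch* only show what a list holds.

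Alternatives were DESeq2 1.42.0, RLE factors, library totals without TMM, edgeR's filterByExpr, a fold change above 2, the compared groups alone, a replicate block, each library left out in turn (with the trended dispersion of the full fit), and both 0 h libraries that went against their labels left out. Replicate numbers were taken to pair libraries where every same-numbered pair had a correlation of residuals over 0.1. The labels do not say what same-numbered libraries share. This held in 12 of 35 comparisons, 4 h against 0 h in WT, Cd5-/-, and Cd5-/-Cd6-/- cells among them (lowest r 0.208 in WT cells). Figures were drawn with matplotlib 3.10.9.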

Additional observations from a re-analysis of the deposited data

Results flagged for a closer look

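The response to stimulation differed between Lat-/- and WT cells for 8 combinations of gene and time, by the interaction contrast of the edgeR fit (Lat-/- response minus WT response, log2). At 4 h, the response of *Ubash3b* was smaller in Lat-/- cells, with a difference of -2.42, 1.54 beside 3.96 in WT cells. That of *Ptpn6* was lower, with a difference of -0.64 (-0.60 beside 0.037). *Ubash3a*, which fell in WT cells, had a difference of 1.04 (0.072 beside -0.97), and *Dok2*, which fell less, one of 0.70 (-0.75 beside -1.44). At 20 h, the differences were -1.12 for *Map4k1* (-0.40 beside 0.72) and -0.95 for *Ptpn6* (-0.79 beside 0.16). The ligase genes differed the other way, by 1.07 for *Cblb* (0.79 beside -0.28) and by 0.97 for *Cbl* (0.29 beside -0.68). Each response is given against the 0 h libraries of its own genotype, so that a difference at 0 h, as for *Ubash3b* and *Ptpn6*, enters it.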

How the results depend on the processing

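Of 111 calls among 350 tests of the 10 genes, 93 were kept under every alternative and 18 were lost under at least 1, while 18 uncalled tests were called under at least 1. No value changed its direction past the test. DESeq2 added 7 calls and lost 5, RLE factors 2 and 1, the expression filter 6 and 5, the compared groups alone 4 and 5, and library totals without TMM 10 and 7. That last setting moved the median log2 fold change of expressed genes at 4 h in WT cells from -0.13 to -0.37 (CD5/CD6) and from -0.039 to -0.28 (LAT). The counts of called genes per comparison moved by over 1.5 times only when a fold change above 2 was also asked for or 1 library was left out.

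With a fold change above 2 in addition, the count went from 5 to 2 for 20 h against 0 h in WT cells from the CD5/CD6 experiment, from 7 to 4 (4 h) and 6 to 3 (20 h) in Cd5-/-, from 7 to 4 (4 h) and 6 to 0 (20 h) in Cd6-/-, and from 5 to 3 (20 h) in Cd5-/-Cd6-/- cells. In WT cells of the LAT experiment it went from 8 to 4 (4 h), 5 to 1 (20 h), and 7 to 4 (20 h against 4 h), and in Lat-/- cells from 7 to 2, 5 to 0, and 4 to 0. For Lat-/- against WT cells at 0 h it went from 2 to 0, and for the response differences from 4 to 2 at 4 h and from 4 to 2 at 20 h. Leaving out each library in turn gave 3 to 6 called genes for 20 h against 0 h in Lat-/- cells. Over the other comparisons it gave 0 for every Cd5-/-, Cd6-/-, and Cd5-/-Cd6-/- comparison with WT cells, 5 to 6 for WT cells at 4 h in the CD5/CD6 experiment, 6 to 8 in the LAT experiment, 3 to 6 for Lat-/- against WT cells at 4 h, and 5 to 7 at 20 h. The replicate block added 5 calls, given above in comparisons taken as paired, and lost 1, *Cbl* at 4 h in sorted WT cells (adjusted p = 0.0605), whose libraries were not taken as paired. It changed no other call. The least covered value of the 10 genes rested on 441 reads (*Dok1*).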

Other observations

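One of the 18 other inhibitors, *Ptprj*, which encodes the receptor phosphatase CD148, moved in opposite directions in WT cells of the 2 experiments. It was chosen here after its values were seen. In the CD5/CD6 experiment it went from 12.3 ± 7.42 CPM (SD, n = 3) at 0 h to 4.81 ± 0.564 at 4 h and 5.78 ± 0.899 at 20 h, with log2 fold changes of -1.36 (edgeR adjusted p = 8.88e-05) and -1.09 (adjusted p = 0.00121). Sorted cells of the LAT experiment started at 1.25 ± 0.632 CPM and reached 2.59 ± 1.05 at 4 h and 5.88 ± 0.543 at 20 h, with log2 fold changes of 1.05 (edgeR adjusted p = 0.00919) and 2.22 (adjusted p = 4.92e-10). The 20 h levels overlapped, and the 0 h levels did not. In the same WT libraries of the CD5/CD6 experiment, the summed B cell markers ran from 100.5 to 559 CPM at 0 h and from 1.78 to 3.39 at 20 h, and the myeloid markers from 136 to 312 and from 2.63 to 3.61. Their part in the *Ptprj* values and the difference between the experiments were not tested.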
